A study of Mus musculus with 6 samples.

Results

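The genes of mitosis and the G2/M transition were followed in the blood stem cells of longest repopulating life (LT-HSCs, long-term hematopoietic stem cells) from mice with and without the latexin gene (Lxn). The set holds 35 genes, chosen by name for their known roles in cell division, with earlier results of these data known. They were read from the array's probe sets that carry those symbols. A probe set was found for 34 of the 35, among 19938 genes on the array, and Ccnb1 was not analysed here. Where a gene had more than 1 probe set, the one with the highest mean over all arrays was used.

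The Lxn-/- mice lack exons 2 to 4 of the latexin gene and the protein it encodes, and the WT mice carry the intact gene. Both groups were C57BL/6 females of 8 to 12 weeks with no treatment named, so all groups share strain, sex and age. Bone marrow cells were sorted as negative for lineage markers, CD34 and a marker that the labels call Flt2, and as positive for Sca1 and c-Kit. Each genotype was represented by 3 pools of about 100000 cells, each from 10 to 20 mice, and each pool was measured on 1 Affymetrix mouse Gene 1.0 ST array. The comparison asks how the stem cell transcriptome differs when latexin is deleted. Values are log2 expression values normalized by the authors with robust multi-array average (RMA), in which a difference of 1 is a doubling of signal, and the small number of arrays limits the precision.

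Cells enter mitosis when the kinase Cdk1, bound to an A- or B-type cyclin, phosphorylates the proteins that condense chromosomes and build the spindle. Kinetochore complexes then tie chromosomes to microtubules, the spindle checkpoint holds back the anaphase-promoting complex until all are attached, and a contractile ring splits the cell. Most LT-HSCs rest outside the cycle, and the transcripts of these genes accumulate only in the cells that divide. In resting cells their promoters are held silent by a complex of pocket proteins, and in dividing cells the factors MYBL2 and FOXM1 activate them. Promoter elements known for this are the CCAAT box bound by NF-Y and the cell cycle genes homology region, whose core reads TTTGAA.

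The promoters are shown because the 34 measured genes varied together between pools, as described further on. RefSeq promoters (build GRCm38.p6), each with 250 bases before and 50 bases after the annotated start, were found for 31 of the 35 genes, 30 of them measured, in 33 entries. The letters CCAAT were searched on both strands, as were TTTGAA and, as a known variant, TTCGAA. Matches to different motifs may share bases. CCAAT occurred in 26 of the 33 entries, or 78.8%, against 37.4% of all 32851 promoters of the same length. TTTGAA occurred in 25 of 33, or 75.8%, against 17.9% of all promoters. Both together were present in 22 entries, or 66.7%, against 6.95% of all. TTCGAA was present in 3 entries, or 9.09%, against 1.56% of all. With only the 250 bases before the start, both occurred together in 10 of the 33 entries, against 5.55% of all promoters, and TTTGAA occurred in 11, against 16.0% of all promoters.

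The following stretches run from 120 bases before to 30 bases after the start, 5′ to 3′ along the gene, with each CCAAT (or ATTGG) and TTTGAA (or TTCAAA) in capitals. The first 4 belong to the genes with the largest lower values in Lxn-/- among those with a promoter entry, Ube2c (chr2:164769809-164769958, plus strand), Prc1 (chr7:80294331-80294480, plus strand), Kif2c (chr4:117178743-117178892, minus strand) and Racgap1 (chr15:99651627-99651776, minus strand).
Ube2c: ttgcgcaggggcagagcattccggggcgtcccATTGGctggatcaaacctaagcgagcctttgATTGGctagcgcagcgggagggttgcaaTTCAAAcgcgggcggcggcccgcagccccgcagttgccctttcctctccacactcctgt
Prc1: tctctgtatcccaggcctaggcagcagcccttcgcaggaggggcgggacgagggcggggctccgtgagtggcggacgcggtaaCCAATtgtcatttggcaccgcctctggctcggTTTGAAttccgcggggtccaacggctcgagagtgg
Kif2c: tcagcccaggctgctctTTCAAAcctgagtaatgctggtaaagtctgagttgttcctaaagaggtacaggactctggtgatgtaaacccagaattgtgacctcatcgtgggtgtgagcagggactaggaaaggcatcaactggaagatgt
Racgap1: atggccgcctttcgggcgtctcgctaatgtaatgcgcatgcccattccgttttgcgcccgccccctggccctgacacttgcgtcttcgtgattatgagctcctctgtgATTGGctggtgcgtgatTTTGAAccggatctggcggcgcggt
In Ube2c the matches to CCAAT begin 88 and 57 bases before the start and that to TTTGAA 29 bases before it, all on the strand opposite to the gene. In Kif2c this window holds only TTTGAA, 103 bases before the start. Prc1 and Racgap1 have 1 match to each motif, close to the start.

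Next come the genes with the differences nearest to 0, Cenpa (chr5:30666766-30666915, plus strand), Mad2l1 (chr6:66535101-66535250, plus strand) and Kif23 (chr9:61946770-61946919, minus strand).
Cenpa: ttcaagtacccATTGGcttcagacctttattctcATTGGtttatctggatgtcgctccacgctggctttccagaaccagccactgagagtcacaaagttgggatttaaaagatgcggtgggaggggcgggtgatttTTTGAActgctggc
Mad2l1: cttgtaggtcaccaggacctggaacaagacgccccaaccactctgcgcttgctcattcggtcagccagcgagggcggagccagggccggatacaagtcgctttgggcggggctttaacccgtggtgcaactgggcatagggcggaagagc
Kif23: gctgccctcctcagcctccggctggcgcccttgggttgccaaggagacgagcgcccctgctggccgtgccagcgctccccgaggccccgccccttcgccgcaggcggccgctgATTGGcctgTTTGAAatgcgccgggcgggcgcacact
Cenpa and Kif23 carry both motifs and Mad2l1 carries neither in this window, so genes with and without the motifs stand at this end of the range.

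The last pair are core regulators, Ccnb2 (chr9:70421525-70421674, minus strand) and Cdk1 (chr10:69352883-69353032, minus strand).
Ccnb2: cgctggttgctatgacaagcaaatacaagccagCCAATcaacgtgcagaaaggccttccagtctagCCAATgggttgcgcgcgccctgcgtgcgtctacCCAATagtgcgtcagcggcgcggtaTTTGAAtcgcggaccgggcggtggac
Cdk1: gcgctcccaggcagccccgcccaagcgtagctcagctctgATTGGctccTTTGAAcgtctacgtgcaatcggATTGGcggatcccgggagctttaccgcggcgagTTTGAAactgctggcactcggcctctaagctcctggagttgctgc
In Ccnb2 the 3 CCAAT boxes lie 33 bases apart and TTTGAA follows just after the start. In Cdk1 the boxes begin 32 bases apart, with 1 TTTGAA between them and another 15 bases before the start. Over the 20 measured members with both motifs the median difference between genotypes was -0.15, and over the 4 with neither it was -0.17. Over all 1239 measured genes with both motifs the median was -0.021, and over the 7646 with neither it was -0.011. A match says only that these letters stand in this window.

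Lxn itself was read first as a check of the labels. Its signal was 8.66, 8.78 and 8.78 in the Lxn-/- pools, against 8.99, 9.09 and 9.55 in the WT pools. All Lxn-/- values lay below all WT values (exact two-sided permutation p = 0.1, the smallest that 3 against 3 allows), as for 5.49% of all genes. The Lxn-/- values still lay above 6.90, the 95th percentile in those pools of probe sets for odorant, vomeronasal and trace amine receptors. The difference was -0.47 (SE 0.14) with all pools (SE, standard error; limma adjusted p = 0.993) and -0.30 without WT replicate 3. No source names the exons that these probes read, and a probe outside the deleted exons would check nothing. The array medians lay between 7.77 and 7.91. In the fit across all genes (limma, two-sided, Benjamini-Hochberg adjustment over 23410 named probe sets) 0 probe sets passed an adjusted p of 0.05, which is 0% of those tested. At an unadjusted p under 0.05 there were 749 of 19938 genes (3.76%). All 10 measured genes of a stem cell marker list lay above the level of receptor genes that blood cells do not use. Of these 10, only Kit encodes a marker that the sort names as positive. Cd34 and Flt3, chosen after their values were seen, were bright too, at 13.01 to 13.31 and 11.59 to 12.20, although the sort was for CD34-negative cells. Ly6a, which encodes Sca1, was not analysed here.

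No mitosis gene passed the test, and the values of the genotypes overlapped for every one. Of the 34 measured genes, 32 had a lower mean in Lxn-/- than in WT, with a median difference of -0.15 on the log2 scale, or 1.11-fold, against 56.0% of all genes lower and a median of -0.013. The share of all genes lower depended on scaling, at 65.5% after quantile normalization and 74.4% with arrays set to a common median, where 32 and 34 of the 34 were lower. A difference below the members' median was found for 7.79% of all genes. The differences ran from -0.29 for Ube2c to 0.017 for Mad2l1. Under limma 0 of the 34 passed an adjusted p of 0.05, where 0% of all probe sets did, and 0 had an unadjusted p under 0.05, where 2.47% of all genes did in the lower direction. The lowest unadjusted p was 0.0541 and the adjusted p-values lay between 0.993 and 0.996. No gene had all 3 Lxn-/- values below all 3 WT values, where 5.49% of all genes did. All 34 limma intervals (95%) included 0, as for 96.2% of all genes, and together they reached from -0.60 to 0.33. For all 34 the difference was smaller than the range of the 3 Lxn-/- values, against 86.6% of all genes. For 31 of the 34 it was smaller than the range of the 3 WT values, close to the 86.9% of all genes. In RNA of bulk pools, fewer dividing cells and less RNA per dividing cell cannot be told apart.

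**Figure D1:**
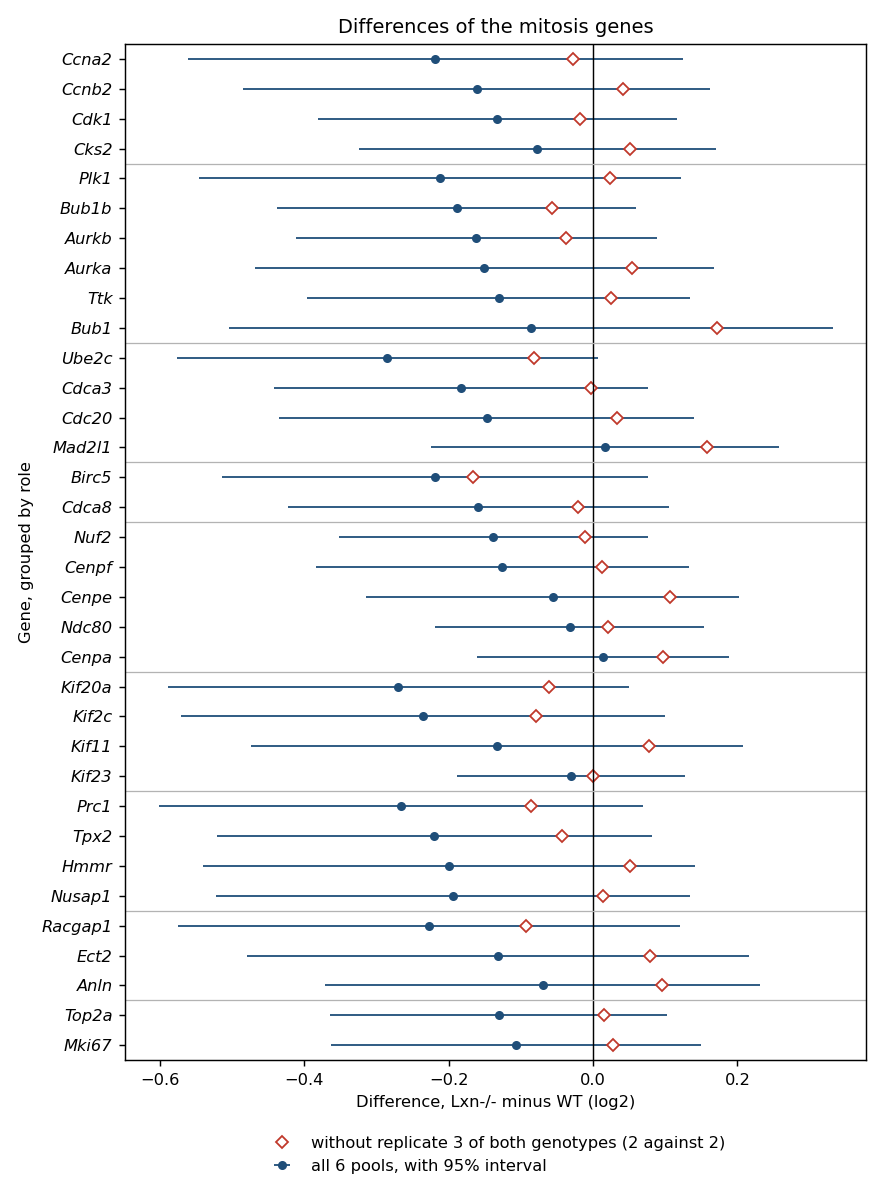
Differences between Lxn-/- and WT pools (log2, x axis) for the 34 measured mitosis genes (y axis, grouped by role and separated by grey lines). Filled circles are all 6 pools with limma's 95% interval, and every interval includes 0. Open diamonds are the differences without replicate 3 of both genotypes, a setting chosen after the values were seen. The diamonds lie to the right of the circles, and leaving out the pools lowest and highest on average had to raise the mean difference.

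Pools of the same genotype differed from each other, and the genotypes overlapped. Centred on each gene's own mean, the 34 genes averaged -0.077, 0.11 and -0.26 in Lxn-/- replicates 1, 2 and 3, against -0.057, 0.068 and 0.21 in WT replicates 1, 2 and 3. Lxn-/- replicate 3 was the lowest pool and WT replicate 3 the highest, while Lxn-/- replicate 2 lay above WT replicates 1 and 2. Gene by gene, Lxn-/- replicate 3 was the lowest of the 6 pools for 29 of the 34, against 17.1% of all genes. WT replicate 3 was the highest for 21 of the 34, against 25.6% of all genes. Both held at once for 17, against 5.04% of all genes. Lxn-/- replicate 2 was the highest Lxn-/- pool for 33 of the 34, against 29.2% of all genes, and exceeded WT replicate 1 for 32, against 47.5%. The median range over the 6 pools was 0.54. A range cannot be smaller than the difference between the genotype means, so it is not compared with that difference.

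The genes also varied together within each genotype. The mean correlation between pairs of the 34 genes over the 6 pools was 0.75, and 0.74 after removal of each genotype's mean, where the mean over all pairs of genes was 0.010 and 0.0085. Other lists also varied together over the same pools, with means of 0.73 for erythroid markers, 0.76 for plasma cell markers, 0.55 for further mitosis genes and 0.54 for neutrophil markers. After removal of each genotype's mean these were 0.63, 0.46, 0.55 and 0.55 in the same order. These are descriptions of 6 shared arrays, and pairs of genes are not independent. By role, the mean over the 6 pools, genotype means not removed, was 0.93 among the kinases other than Cdk1 and 0.93 among the spindle assembly genes. It was 0.75 among the kinetochore genes, 0.61 among the cyclins with Cdk1 and Cks2, and 0.55 among the cytokinesis genes.

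**Figure D2:**
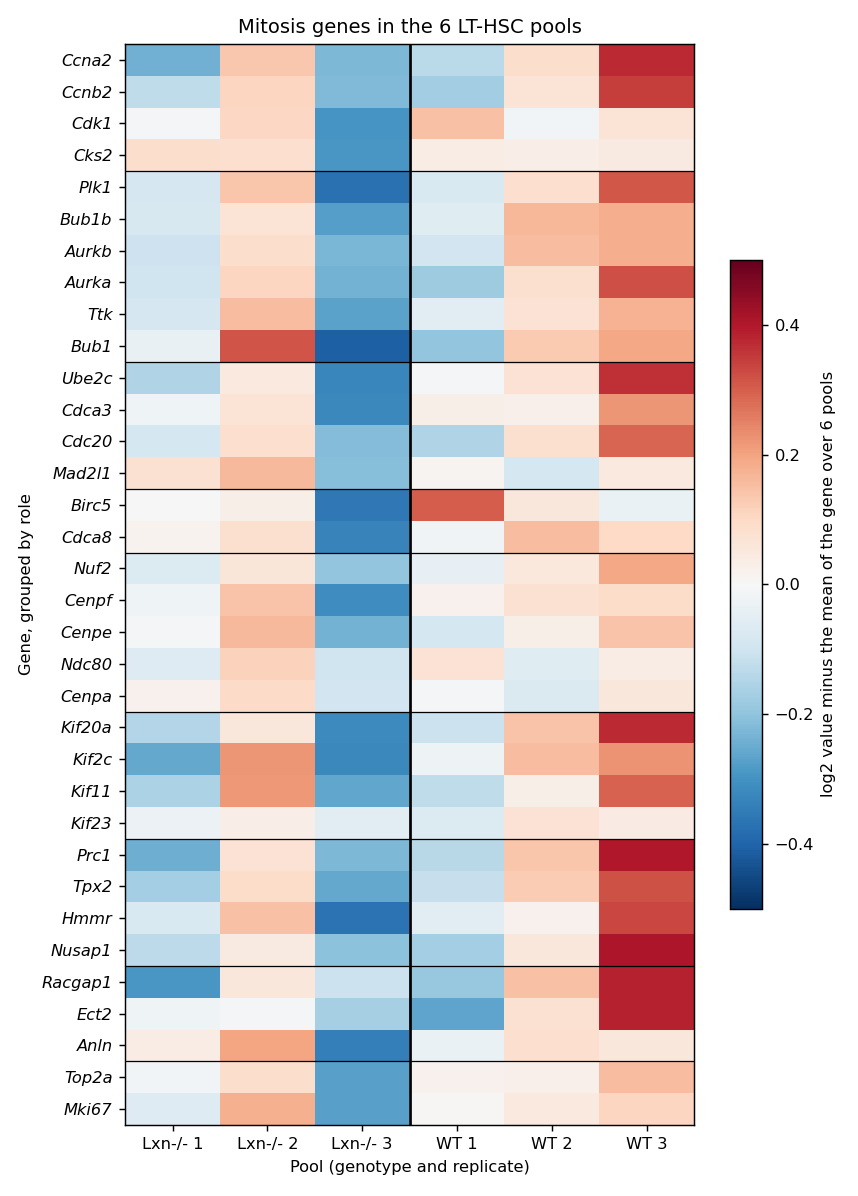
Log2 value of each measured mitosis gene (y axis, grouped by role, black lines between roles) in each pool (x axis, Lxn-/- replicates left and WT replicates right), minus the mean of the gene over the 6 pools. Blue is below and red above the mean; the column of Lxn-/- replicate 3 is the lowest for 29 of 34 genes, and the column of WT replicate 3 the highest for 21.

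The difference between genotypes changed with the pools left out. Without replicate 3 of both genotypes, a setting chosen after the values were seen, 14 of the 34 genes were lower in Lxn-/-, against 53.6% of all genes. The median difference was then 0.015. These were on average the lowest and the highest pool, so leaving out both had to raise the mean difference. Without replicate 1 of both the median was -0.24 with 32 genes lower, against 58.2% of all genes. Without replicate 2 of both it was -0.24 with all 34 lower, against 52.1%. Leaving out single pools gave -0.069 without Lxn-/- replicate 3 and -0.082 without WT replicate 3. It gave -0.24 without Lxn-/- replicate 2 and -0.22 without WT replicate 1. Without Lxn-/- replicate 2, all remaining Lxn-/- values lay below the WT values for 18 of the 34 genes, against 10.2% of all genes. Without WT replicate 1 this held for 11, against 14.3% of all genes. An unadjusted p under 0.05 in limma was found for 10 of the 34, against 2.31% of all genes in the lower direction, without Lxn-/- replicate 2. It was found for 10 too without WT replicate 1, against 3.44% of all genes. Lxn-/- replicate 2 was the highest Lxn-/- pool for 33 of the 34 genes, against 29.2% of all genes. WT replicate 1 was the lowest WT pool for 27, against 40% of all genes. Leaving out either pool therefore had to lower the mean difference and reduce overlap for these genes, so the counts are no test of the genotype. No gene passed an adjusted p of 0.05 in limma in any of these settings.

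**Figure D3:**
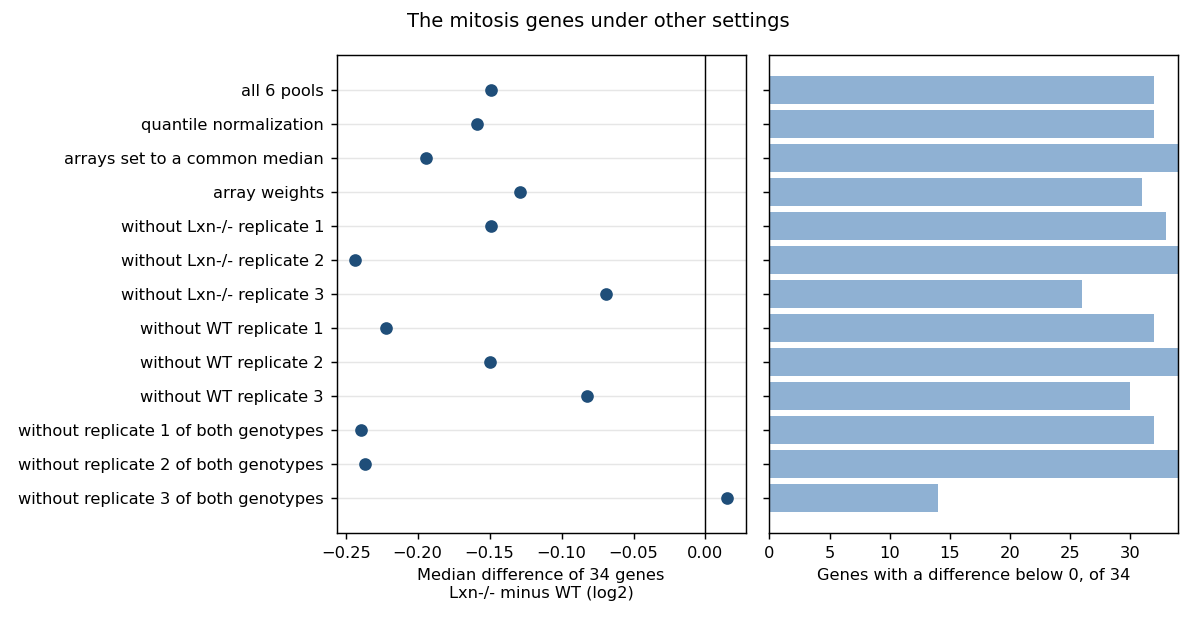
Median difference of the 34 mitosis genes between Lxn-/- and WT (left panel, log2) and number of the 34 with a difference below 0 (right panel, bars from 0) under each setting (y axis). The median is -0.15 with all 6 pools and 0.015 without replicate 3 of both genotypes, where 14 of 34 genes are below 0. That setting was chosen after the values were seen and leaves out the pools lowest and highest on average.

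Among the cyclins and their kinase, Ccna2, the cyclin of S and G2 phase, had the lowest p. Its values were 11.50, 11.88 and 11.51 in the Lxn-/- pools, against 11.60, 11.83 and 12.11 in the WT pools, a difference of -0.22 (SE 0.15). WT replicate 3 stood above the rest, and Lxn-/- replicate 2 lay above WT replicates 1 and 2. Ccnb2, a B-type cyclin, differed by -0.16 (SE 0.14) and Cdk1 by -0.13 (SE 0.11). Cks2, a small subunit that binds Cdk1, had 10.97, 10.97 and 10.59 in the Lxn-/- pools, against 10.92, 10.92 and 10.93 in the WT pools. Only Lxn-/- replicate 3 departed from the others, and the difference was -0.077 (SE 0.11). Its other 2 probe sets differed by -0.040 and -0.045.

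The 7 kinases, Cdk1 included, were all lower in Lxn-/- with a median of -0.15, which was -0.071 without Lxn-/- replicate 3. Plk1, the polo-like kinase of centrosome maturation and mitotic exit, had 10.91, 11.13 and 10.62 in the Lxn-/- pools, against 10.92, 11.08 and 11.30 in the WT pools. The difference was -0.21 (SE 0.14), with Lxn-/- replicate 3 lowest and Lxn-/- replicate 2 above WT replicates 1 and 2. Bub1b, which encodes the checkpoint protein BubR1, had the lowest p of the kinases, with 10.20, 10.35 and 10.00 in the Lxn-/- pools, against 10.21, 10.44 and 10.46 in the WT pools. The difference was -0.19 (SE 0.11), and WT replicate 1 lay among the Lxn-/- values. Aurkb, the kinase of the chromosomal passenger complex, differed by -0.16 (SE 0.11), Aurka, the kinase of the spindle poles, by -0.15 (SE 0.14) and the checkpoint kinase Ttk by -0.13 (SE 0.11). Bub1, a kinetochore kinase, had the widest range of all 34 genes, 0.72. Its values were 10.34, 10.69 and 9.97 in the Lxn-/- pools, against 10.18, 10.51 and 10.57 in the WT pools, so that the Lxn-/- pools held both the highest and the lowest value. Its difference was -0.086 (SE 0.18), and 0.096 without Lxn-/- replicate 3.

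Ube2c, the ubiquitin-conjugating enzyme that works with the anaphase-promoting complex, had the lowest p of all 34 genes. It had 10.48, 10.68 and 10.30 in the Lxn-/- pools, against 10.62, 10.70 and 10.99 in the WT pools, with means of 10.49 ± 0.19 in the Lxn-/- pools and 10.77 ± 0.20 in the WT pools (SD, n = 3 each). Lxn-/- replicate 2 was the only Lxn-/- pool above a WT pool, and the difference was -0.29 (SE 0.13), or 1.22-fold (limma, unadjusted p = 0.0541, adjusted p = 0.993). Without replicate 3 of both genotypes it was -0.082. Cdc20, which activates the complex, differed by -0.15 (SE 0.12) and Cdca3, a regulator of mitotic entry, by -0.18 (SE 0.11). Mad2l1, the checkpoint protein that binds Cdc20, had 11.19, 11.28 and 10.90 in the Lxn-/- pools, against 11.13, 11.02 and 11.16 in the WT pools. It was 1 of the 2 genes not lower in Lxn-/-, at 0.017 (SE 0.10), although Lxn-/- replicate 3 was its lowest pool too.

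The 5 spindle checkpoint genes, Bub1, Bub1b, Ttk, Mad2l1 and Cdc20, had a median of -0.13 with 4 of 5 lower. That median was -0.030 without Lxn-/- replicate 3 and -0.038 without WT replicate 3. Birc5 (survivin) and Cdca8 (borealin) are subunits that bring Aurkb to centromeres and the midzone. Birc5 had 9.09, 9.11 and 8.73 in the Lxn-/- pools, against 9.39, 9.14 and 9.05 in the WT pools. WT replicate 1 was its highest pool, and it differed by -0.22 (SE 0.13). Its genotypes did not overlap after quantile normalization or with arrays set to a common median, where 7.06% and 7.88% of all genes did not overlap in the lower direction. Its difference was -0.17 without replicate 3 of both genotypes. Cdca8 had 9.69, 9.75 and 9.34 in the Lxn-/- pools, against 9.66, 9.83 and 9.77 in the WT pools, a difference of -0.16 (SE 0.11) in which only Lxn-/- replicate 3 lay clearly apart.

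The kinetochore genes had a median of -0.056 with 4 of 5 lower. With all pools this was the median nearest to 0 of the 5 subgroups, but without WT replicate 3 it was -0.021 and that of the kinesins -0.019. Subgroups were not tested against each other. Without replicate 3 of both genotypes the medians were 0.023 for kinases, 0.00039 for kinesins, 0.021 for kinetochore genes, 0.033 for spindle checkpoint genes and -0.037 for cytokinesis genes. Nuf2, a subunit of the complex that grips microtubules, had 9.47, 9.60 and 9.34 in the Lxn-/- pools, against 9.50, 9.59 and 9.73 in the WT pools, a difference of -0.14 (SE 0.093). Its partner Ndc80 differed by -0.032 (SE 0.081). Cenpa, the histone H3 variant that marks centromeres, had 11.08, 11.15 and 10.96 in the Lxn-/- pools, against 11.05, 10.98 and 11.11 in the WT pools and differed by 0.013 (SE 0.076). Its range over the 6 pools was 0.19. Cenpe, a kinesin of the kinetochore, differed by -0.056 (SE 0.11) and Cenpf, a large kinetochore protein, by -0.13 (SE 0.11). Without Lxn-/- replicate 3 the median of the kinetochore genes was 0.0096.

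The 5 kinesins had a median of -0.13 and all were lower, over a span from -0.27 to -0.030. Their median was -0.037 without Lxn-/- replicate 3 and -0.019 without WT replicate 3. Kif20a, the midzone kinesin that carries the passenger complex, had 9.99, 10.19 and 9.82 in the Lxn-/- pools, against 10.03, 10.28 and 10.51 in the WT pools. The difference was -0.27 (SE 0.14), and only Lxn-/- replicate 2 lay above a WT pool. Kif23, the motor of the centralspindlin complex, had 10.56, 10.62 and 10.54 in the Lxn-/- pools, against 10.52, 10.66 and 10.63 in the WT pools. Its range of 0.14 was the smallest of all 34 genes and its difference was -0.030 (SE 0.068). Kif2c, a microtubule depolymerase, differed by -0.24 (SE 0.14), and Kif11, which pushes spindle poles apart, by -0.13 (SE 0.15).

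The 4 spindle assembly genes had a median of -0.21. Prc1, which cross-links the microtubules of the midzone, had 9.55, 9.87 and 9.57 in the Lxn-/- pools, against 9.66, 9.93 and 10.20 in the WT pools. Its difference was -0.27 (SE 0.15), with Lxn-/- replicates 1 and 3 below all WT pools. Nusap1, a microtubule-binding protein, had 10.58, 10.75 and 10.50 in the Lxn-/- pools, against 10.54, 10.76 and 11.11 in the WT pools and differed by -0.19 (SE 0.14). WT replicate 3 stood alone above the rest for both. Tpx2, the activator of Aurka, differed by -0.22 (SE 0.13) and Hmmr, a spindle protein first known as a hyaluronan receptor, by -0.20 (SE 0.15).

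Cytokinesis genes, a subgroup of 9 that shares Kif20a, Kif23, Prc1, Aurkb, Birc5 and Cdca8 with the groups above, were all lower with a median of -0.16, which was -0.088 without Lxn-/- replicate 3. Racgap1, the partner of Kif23 in centralspindlin, had 9.99, 10.34 and 10.18 in the Lxn-/- pools, against 10.09, 10.43 and 10.67 in the WT pools, a difference of -0.23 (SE 0.15). For this gene Lxn-/- replicate 1 was the lowest pool. Anln (anillin), a scaffold of the contractile ring, had 10.23, 10.39 and 9.85 in the Lxn-/- pools, against 10.16, 10.27 and 10.25 in the WT pools and differed by -0.070 (SE 0.13). Only Lxn-/- replicate 3 lay below all WT pools. Ect2, the exchange factor that activates RhoA at the cell equator, differed by -0.13 (SE 0.15), with WT replicate 1 lowest.

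Top2a and Mki67 act on the chromosomes, as the topoisomerase that untangles sister DNA and as the coat protein known as the Ki-67 antigen. Top2a had 11.48, 11.58 and 11.22 in the Lxn-/- pools, against 11.52, 11.52 and 11.65 in the WT pools, a difference of -0.13 (SE 0.10). Its second probe set of 1 symbol read 4.82 to 5.05 in all pools, under the 95th percentile of the receptor probe sets, and is not compared. Mki67, widely used to count dividing cells, had 12.19, 12.43 and 11.98 in the Lxn-/- pools, against 12.26, 12.30 and 12.36 in the WT pools. Lxn-/- replicate 2 was its highest and Lxn-/- replicate 3 its lowest pool, and the difference was -0.11 (SE 0.11), or 0.0023 without Lxn-/- replicate 3.

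Of 83 measured genes in a further list of mitosis genes, 69 were lower in Lxn-/- with a median of -0.079. Of these 83, 0 passed the test over all genes in limma, where 0% of all genes did. An unadjusted p under 0.05 in limma was found for 0, where 3.76% of all genes had one. The genotypes did not overlap for 2 of them in the lower direction, Cdc25b and Bub3, where 5.49% of all genes did so. Cdc25b, a phosphatase that activates Cdk1, had 9.66, 9.74 and 9.55 in the Lxn-/- pools, against 9.90, 9.74 and 9.81 in the WT pools, a difference of -0.17 (SE 0.077). Bub3, the partner of Bub1 and Bub1b, had 10.42, 10.57 and 10.50 in the Lxn-/- pools, against 10.60, 10.61 and 10.80 in the WT pools, a difference of -0.18 (SE 0.081). Ccnf, an F-box protein with a cyclin fold, differed by -0.23 (SE 0.13). Without replicate 3 of both genotypes the median of the list was 0.037, with -0.00034 without Lxn-/- replicate 3 alone and -0.034 without WT replicate 3 alone. Subunits of the anaphase-promoting complex, with 9 of 13 lower and a median of -0.022, lay close to the median of all genes.

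Genes of DNA replication were lower for 35 of 48 with a median of -0.046. Rrm2, a subunit of ribonucleotide reductase, differed by -0.25 (SE 0.15), thymidine kinase Tk1 by -0.21 (SE 0.13) and the flap endonuclease gene Fen1 by -0.14 (SE 0.093). The list averaged 0.0019, 0.056 and -0.13 in Lxn-/- replicates 1, 2 and 3 after centring, against -0.059, 0.031 and 0.10 in WT replicates 1, 2 and 3. Replicate 3 of each genotype again held the extremes, and without both the median was 0.031. G1 and S cyclins with their kinases had a median of -0.045 with 9 of 12 lower. Inhibitors of cyclin-dependent kinases and pocket proteins had a median of -0.024 with 5 of 9 lower. Among them Cdkn1b, which encodes the inhibitor p27, had 11.25, 11.12 and 11.35 in the Lxn-/- pools, against 11.13, 10.99 and 10.89 in the WT pools. Its difference was 0.24 (SE 0.090) (limma, unadjusted p = 0.0310, adjusted p = 0.993). Cdkn2a differed by -0.14 (SE 0.073) and Cdkn2d by 0.085 (SE 0.071).

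Markers of other cell types differed between the same pools. Erythroid markers, measured for 13 of the 22 listed, were lower for 13 of 13 with a median of -0.32. After centring they averaged -0.22, 0.29 and -0.61 in Lxn-/- replicates 1, 2 and 3, against -0.11, 0.095 and 0.56 in WT replicates 1, 2 and 3. Their summed linear signal was 14519 to 26211 in the Lxn-/- pools and 19044 to 29105 in the WT pools. No measured erythroid marker lay below the receptor percentile, which was 6.90 in Lxn-/- and 6.98 in WT. The globin genes were not analysed here. Alas2, the first enzyme of red cell heme synthesis, had 7.61, 7.44 and 7.68 in the Lxn-/- pools, against 8.02, 7.90 and 7.62 in the WT pools. It differed by -0.27 (SE 0.12) and Trim10 by -0.24 (SE 0.11). By list average, the mitosis genes and the erythroid markers placed the 6 pools in the same order, which Alas2 itself did not follow. That order ran from Lxn-/- replicate 3 through Lxn-/- replicate 1, WT replicate 1, WT replicate 2 and Lxn-/- replicate 2 to WT replicate 3. The erythroid median was 0.088 without replicate 3 of both genotypes.

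Neutrophil markers ran nearly the opposite way over the pools. The 17 measured markers averaged 0.26, -0.75 and 0.98 in Lxn-/- replicates 1, 2 and 3, against 0.66, 0.12 and -1.26 in WT replicates 1, 2 and 3, with 4 of 17 lower in Lxn-/- and a median of 0.47. That median was -0.64 without replicate 3 of both genotypes. Their summed signal was 38767 to 54849 in the Lxn-/- pools and 27646 to 50019 in the WT pools. S100a8 and Chil3, granulocyte proteins, differed by 0.75 (SE 0.76) and 0.65 (SE 0.79). B cell markers were lower for 15 of 16 with a median of -0.36, and plasma cell markers for 12 of 12 with a median of -0.48. B cell markers summed to 14092 to 17047 in the Lxn-/- pools and 16280 to 23924 in the WT pools, with Cr2 under the receptor percentile. Plasma cell markers summed to 23842 to 24468 in the Lxn-/- pools and 28276 to 36114 in the WT pools. For 9 of the 12 all Lxn-/- values lay below all WT values, against 5.49% of all genes. Without replicate 3 of both genotypes the plasma cell median was -0.49 and the B cell median -0.18. Pou2af1 and Fcrla differed by -0.74 (SE 0.12) and -0.60 (SE 0.14), and Mzb1 and Sdc1 by -0.80 (SE 0.12) and -0.48 (SE 0.080). Early progenitor markers had a median of 0.044 with 6 of 16 lower, and sums of 51216 to 57908 in the Lxn-/- pools and 50869 to 62277 in the WT pools. A list of markers taken as negative also held Ptprc, Cd48 and Il7r, which the labels of the sort do not name. It had a median of 0.068 with 2 of 10 lower, and sums of 19120 to 22776 in the Lxn-/- pools and 19717 to 20583 in the WT pools. Stem cell markers, of which the sort used only Kit, were lower for 1 of 10 with a median of 0.055. They averaged -0.032, -0.011 and 0.13 in Lxn-/- replicates 1, 2 and 3, against -0.12, -0.0025 and 0.031 in WT replicates 1, 2 and 3. Lxn-/- replicate 3, the pool lowest in mitosis genes, was the highest in them, and the sums were 22366 to 25111 in the Lxn-/- pools and 21874 to 22652 in the WT pools. The part of these cells in the difference of the mitosis genes was not tested.

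**Figure D4:**
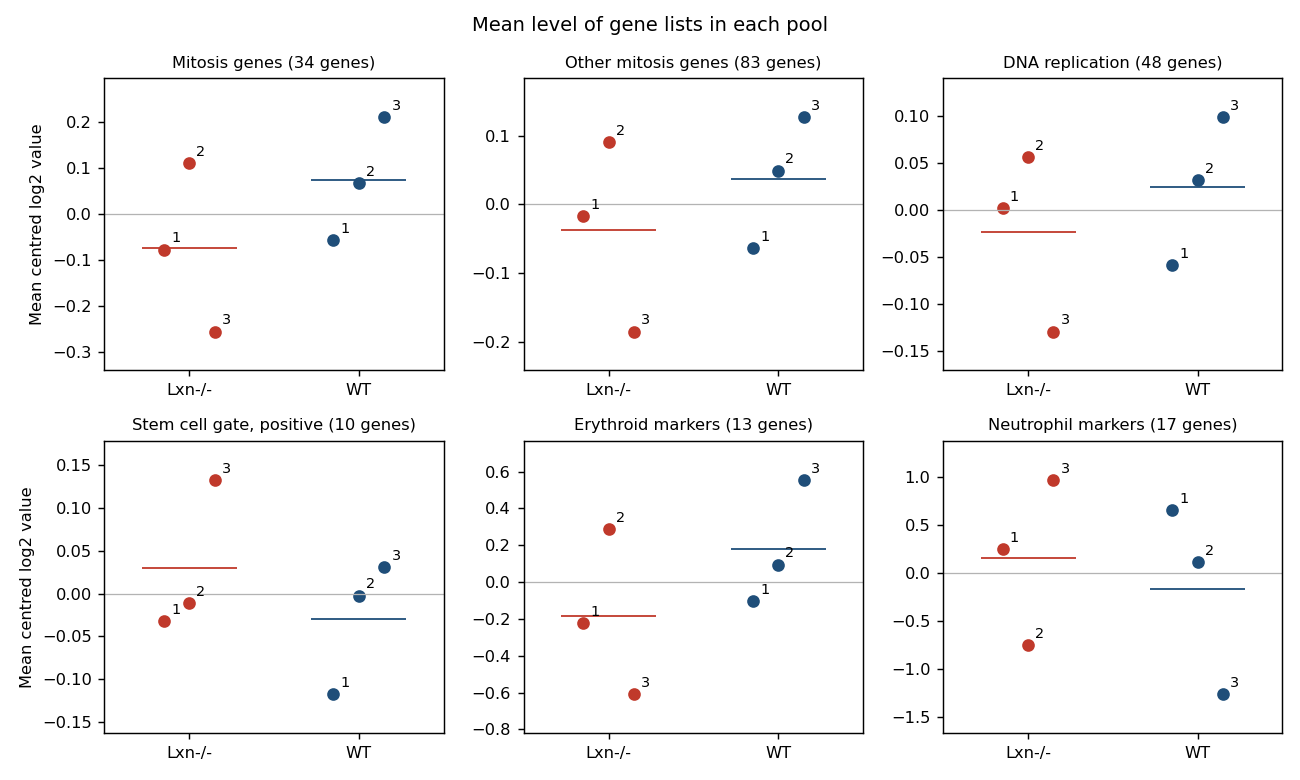
Mean over each list of the log2 values, centred on each gene's mean over the 6 pools (y axis, scaled separately in each panel), for Lxn-/- pools (red, left) and WT pools (blue, right). The panel named stem cell gate holds stem cell markers, of which the sort used only Kit. Digits are replicate numbers and horizontal lines the means of each genotype; mitosis genes and erythroid markers put the 6 pools in the same order, and neutrophil markers run nearly the opposite way.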

How the data were processed

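Total RNA of 6 sorted pools was labelled from 100 ng and hybridised to MoGene-1-0-st-v1 arrays. The deposited table holds log2 values normalized by the authors with RMA, per the series' design text; the submitters' processing notes also name Partek 6.0. Their summary level and genome build were not given in the sources used here. GEO's platform annotation named 23410 of 35557 probe sets, 21789 with 1 symbol and 1621 with several; those with several give no gene its values here. Genotypes were compared with limma 3.58.1 (R 4.3.3; lmFit, eBayes, no covariates, Benjamini-Hochberg over the named probe sets). On simulated data the limma fit was checked for recovery of known changes. Noise there was independent between probe sets and the changes were larger than any member's, so this checks the code only. Lists are described by counts and medians. The members and lists were chosen with earlier results of these data known. Named genes are all members, with values per pool for the lowest p and the highest and lowest difference in each role, and the 2 or 3 genes of lowest unadjusted p in other lists. The limma p-values set each difference against the spread between pools of the same genotype, which eBayes moderates across probe sets. Each pool mixed cells of several mice, so variation between single mice was not measured. Alternatives were 2 scalings, array weights, a trended robust variance, a filter on dim probe sets, the replicate block, averaged probe sets, all probe sets, a shorter promoter window and left-out pools.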

Additional observations from a re-analysis of the deposited data

How the results depend on the processing

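There were 7 alternatives: both scalings, array weights, the trended variance, the dim filter, the replicate block and averaged probe sets. Under them 31 to 34 mitosis genes stayed lower in Lxn-/-, against 54% to 74.4% of all genes, and 0 passed limma's adjusted p. The 34 arose with arrays set to a common median, where the share was 74.4%. An unadjusted p under 0.05 in limma was found for 0 to 3, against 1.78% to 4.5% of all genes in the lower direction. The 3 arose with array weights, where the share was 4.5%. Testing all 35557 probe sets also called 0. The replicate block left 32 lower and the median at -0.15. Deviations of same-numbered pools from their group means correlated at 0.36, -0.11 and -0.12 over all genes. Lxn-/- replicate 2 and WT replicate 3 reached 0.38. With so few pools these values cannot show whether the numbers pair the pools. Common-median scaling turned Cenpa to -0.032 and Mad2l1 to -0.028, where the median of all genes was -0.058 against -0.013, and array weights turned Ndc80 to 0.0051. Quantile and common-median scaling each gave 1 of 34 genes without overlap, Birc5, where 7.06% and 7.88% of all genes did not overlap. The shorter promoter window held both motifs in 10 entries instead of 22.

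With pools left out, singly or by number in both genotypes, the median ran from -0.24 to 0.015. The number lower ran from 14 to 34, against 52.1% to 58.2% of all genes. The number without overlap ran from 0 to 19, the highest without replicate 2 of both, where 15.4% of all genes did not overlap. An unadjusted p under 0.05 in limma was found for 0 to 10, against 1.62% to 3.68% of all genes in the lower direction. The 10 arose without Lxn-/- replicate 2 or without WT replicate 1. These were on average the highest Lxn-/- pool and the lowest WT pool for the mitosis genes, so the 10 are no test of the genotype. In those settings differences spanned -0.29 to 0.041 for Ccnb2, -0.26 to 0.033 for Cdc20, -0.35 to 0.023 for Plk1, -0.28 to 0.053 for Aurka, -0.26 to 0.17 for Bub1, -0.23 to 0.016 for Top2a and -0.22 to 0.028 for Mki67. They spanned -0.29 to 0.078 for Kif11, -0.072 to 0.00038 for Kif23, -0.063 to 0.10 for Cenpa, -0.15 to 0.11 for Cenpe, -0.23 to 0.013 for Cenpf, -0.33 to 0.014 for Nusap1 and -0.24 to 0.024 for Ttk. For Cks2 they spanned -0.14 to 0.052, for Hmmr -0.36 to 0.052, for Ect2 -0.32 to 0.079, for Anln -0.19 to 0.10, for Ndc80 -0.14 to 0.021 and for Mad2l1 -0.10 to 0.16. The other 14 genes kept a lower value in Lxn-/-, between -0.42 and -0.0027 in these settings, with -0.26 to -0.018 for Cdk1, -0.25 to -0.022 for Cdca8 and -0.30 to -0.0027 for Cdca3. The settings without a replicate number in both genotypes were chosen after seeing the data, and the cause was not tested.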
